A study of Homo sapiens with 6 samples.

Results

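The apoptosis regulators of the BCL2 family were examined in a map of SMARCA4 binding in K562 cells. The 10 genes were MCL1, BCL2A1, BAX, BAK1, BCL2L11, BID, BBC3, PMAIP1, BAD and BIK, chosen by name, of 20163 protein-coding genes in the annotation. Where the text gives counts for the family, these 10 genes are meant. For each gene, every SMARCA4 peak that shared at least 1 bp with its annotated span plus 10 kb on each side (its window) was collected, which gave 28 of the 28265 peaks. K562 is an established line of chronic myelogenous leukaemia cells, and SMARCA4 (also called BRG1) is the ATP-burning motor of SWI/SNF, a complex that slides and evicts nucleosomes. Crosslinking used disuccinimidyl glutarate (2 mM, 30 min) followed by formaldehyde (1%, 10 min), and DNA bound to SMARCA4 was recovered with an antibody and sequenced (ChIP-seq) in 3 ChIP libraries beside 3 input libraries made without that step. All libraries come from this line, so there is 1 condition and no contrast between treatments. The labels name SMARCA4 in the titles and as the antibody of the ChIP libraries, but their description field reads G4 ChIP-seq. The libraries were taken as SMARCA4 ChIP, as in the study's methods. The study reports as many SMARCA4 binding sites as the list analysed here has peaks, and fewer sites from G4 ChIP-seq. The list thus matches the study's SMARCA4 map in size. Beyond this match, which entry is right was not tested with the peaks. The labels also call the ChIP libraries technical replicates with 1 input, whereas the study's text speaks of biological replicates. The peak list keeps what at least 2 of the 3 replicates share and gives only a start and an end, so no peak has a height, a read number or a spread between replicates.

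The BCL2 family decides whether the outer membrane of mitochondria stays intact. BAX and BAK1 form the pores that release cytochrome c, MCL1 and BCL2A1 hold them in check, and the BH3-only proteins either activate the effectors (BCL2L11, BID, BBC3 and, by some accounts, PMAIP1) or occupy the guardians (BAD, BIK). Several of these genes are classical targets of the tumour suppressor p53, of which K562 cells have no functional copy, and blood cells of the myeloid lineage lean on MCL1 for survival.

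Sequences under the peaks are shown first. The motifs that follow can fold into a G-quadruplex (G4), a 4-stranded DNA structure, and each lay in a promoter peak, that is, a peak within 1 kb on either side of a transcription start site (TSS) of the gene. Such a motif has 4 stretches of 3 or more G joined by loops of 1 to 7 bases, and each sequence is written 5′ to 3′ on the strand of the G runs, which are in capitals.
MCL1 promoter: GGGccGGGGcGGGGccGGGG
BAK1 promoter: GGGaggtGGGGtGGGGaaagtGGG
BCL2L11 promoter: GGGGcGGGacctagcGGGGGcGGGG
BID promoter: GGGGattcaGGGGaGGGGtgcGGGG
BBC3 promoter: GGGGGcGGGGcGGGGcGGGG
PMAIP1 promoter: GGGGcGGGGacaGGGGcGGGG
BAD promoter: GGGccgcGGGcgcgccGGGGcgaGGGG
On hg19 these lay at chr1:150552239-150552258 (plus strand), chr6:33548129-33548152 (minus), chr2:111878399-111878423 (plus), chr22:18256821-18256845 (minus), chr19:47734499-47734518 (minus), chr18:57567121-57567141 (plus) and chr11:64052860-64052886 (plus). Relative to the nearest TSS of the gene they stood at -25, -59, -68, -39, -43, -87 and -684 bp, where negative is upstream. For MCL1, BAK1, BID and BAD the nearest TSS was not the canonical one. The BID motif lay in intron 1 of the canonical transcript. The BAX promoter peak held no G4 motif.

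Longer stretches of 6 peaks show the other motifs of the family, chosen after their matches had been seen. They are written 5′ to 3′ on the plus strand of hg19, with matches to any motif of the list other than G4 in capitals, on either strand.
MCL1 intron 1 and exon 2: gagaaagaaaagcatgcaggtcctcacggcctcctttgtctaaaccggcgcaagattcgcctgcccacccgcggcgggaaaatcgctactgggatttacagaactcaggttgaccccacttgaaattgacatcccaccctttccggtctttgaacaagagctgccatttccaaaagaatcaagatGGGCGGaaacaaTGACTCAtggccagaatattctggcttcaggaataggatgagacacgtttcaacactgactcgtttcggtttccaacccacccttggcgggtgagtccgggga
BCL2A1 downstream flank: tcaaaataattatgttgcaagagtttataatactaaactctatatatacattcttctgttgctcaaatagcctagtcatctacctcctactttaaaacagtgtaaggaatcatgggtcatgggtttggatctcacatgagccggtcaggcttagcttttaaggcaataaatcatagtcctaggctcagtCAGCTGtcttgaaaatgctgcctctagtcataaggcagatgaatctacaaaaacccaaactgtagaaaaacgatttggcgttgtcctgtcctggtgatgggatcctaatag
BAX upstream of the canonical TSS: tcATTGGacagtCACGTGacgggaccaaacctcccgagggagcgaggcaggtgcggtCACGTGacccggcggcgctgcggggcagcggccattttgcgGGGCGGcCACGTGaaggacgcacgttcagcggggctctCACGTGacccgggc
BAK1 upstream flank: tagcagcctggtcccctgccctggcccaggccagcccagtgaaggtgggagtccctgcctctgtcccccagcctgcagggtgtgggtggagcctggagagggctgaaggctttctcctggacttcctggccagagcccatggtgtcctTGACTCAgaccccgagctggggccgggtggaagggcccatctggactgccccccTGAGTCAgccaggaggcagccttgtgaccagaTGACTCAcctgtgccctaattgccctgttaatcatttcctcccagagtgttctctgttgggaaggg
BCL2L11 upstream of the canonical TSS: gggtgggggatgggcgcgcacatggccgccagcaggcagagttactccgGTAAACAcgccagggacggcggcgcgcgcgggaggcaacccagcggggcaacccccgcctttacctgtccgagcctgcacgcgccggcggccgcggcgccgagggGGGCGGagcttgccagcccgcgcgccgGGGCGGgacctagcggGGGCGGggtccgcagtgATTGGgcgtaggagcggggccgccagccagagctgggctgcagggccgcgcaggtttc
BIK upstream flank: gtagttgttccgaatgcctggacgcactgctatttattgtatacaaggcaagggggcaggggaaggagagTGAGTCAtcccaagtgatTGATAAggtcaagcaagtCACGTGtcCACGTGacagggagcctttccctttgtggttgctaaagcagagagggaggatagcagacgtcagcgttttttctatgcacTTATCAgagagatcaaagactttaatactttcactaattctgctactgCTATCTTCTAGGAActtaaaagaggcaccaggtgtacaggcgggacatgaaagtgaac
Their positions are chr1:150550970-150551269, chr15:80246552-80246851, chr19:49457982-49458131, chr6:33557948-33558247, chr2:111878219-111878490 and chr22:43500070-43500369. In the MCL1 stretch the capitals mark GGGCGG (SP/KLF) and TGACTCA (AP-1), and in the BCL2A1 stretch a single CAGCTG E-box. The BAX stretch carries 4 copies of the CACGTG E-box, 1 GGGCGG and an inverted CCAAT (NFY). The BAK1 stretch carries 3 AP-1 motifs. In BCL2L11 the capitals mark an inverted TGTTTAC (FOXO), 3 GGGCGG and an inverted CCAAT, and 2 of the GGGCGG lie within its G4 motif. The BIK stretch holds, in order, an AP-1 motif, a GATA motif, 2 neighbouring CACGTG E-boxes and an inverted GATA motif. Its last capitals are an inverted GATA motif that overlaps a match to the STAT motif TTCNNNGAA. A match describes letters in the sequence and does not show that a factor binds there.

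Each of the 10 genes had SMARCA4 in its neighbourhood, but not every promoter did. All 10 genes had at least 1 peak in their window, where 63.0% of all protein-coding genes had one (12706 of 20163, 95% Wilson interval 62.3 to 63.7%). A promoter peak was present at 8 of the 10, against 48.1% of protein-coding genes (interval 47.4 to 48.7%), and the exceptions were the pro-survival gene BCL2A1 and the sensitizer BIK. Longer windows can hold more peaks, so the shares were also taken over the 10743 coding genes with windows as long as those of the family, from 24310 to 69067 bp. There 65.6% had a window peak and 51.1% a promoter peak. The family had a median of 3 peaks per window and a mean of 2.80, and the coding genes of like window length a median of 1 and a mean of 1.70. These shares and medians are descriptions, since the 10 genes were not drawn at random.

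**Figure D1:**
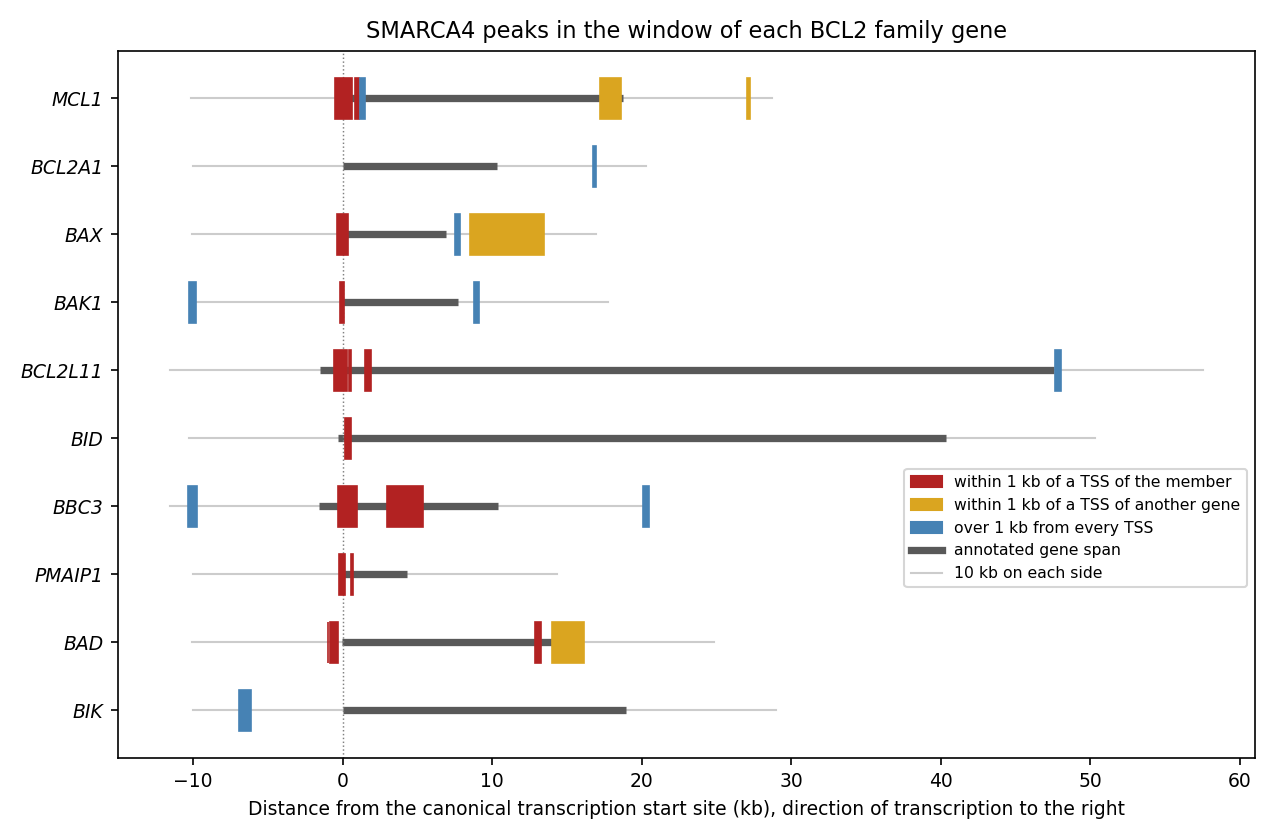
Position of the 28 SMARCA4 peaks in the windows of the 10 genes, in kb from the canonical TSS with transcription to the right. Thick lines are annotated gene spans, thin lines the 10 kb on each side, and boxes the peaks, drawn to scale with a thin outline. BCL2A1 and BIK have no box at their TSS, and the widest box, downstream of BAX, lies at another gene.

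Of the 28 peaks 15 were promoter peaks and 13 were distal. Among the distal ones, 8 lay in a flank of the family gene and 1 inside its span, all over 1 kb from every annotated TSS. A further 1 was at the TSS of noncoding genes and 3 at the TSS of another coding gene. Flank peaks can lie in the span of another gene, as those of BAK1 and BCL2L11 did. The canonical TSS lay inside a peak for 6 of the 10 genes, compared with 34.3% of coding genes, and BID and BAD missed it by 140 and 297 bp. Counting all annotated transcripts, 21 of the 45 TSS positions of the family were inside a peak, against 24.3% of the 146567 positions of all coding genes and 28.5% in coding genes of like window length. TSS positions of 1 gene often share a peak, so they are not independent. As the map of the peaks shows, further peaks in a gene body were near its 5′ part, at an alternative start or at the promoter of a neighbour.

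Among the anti-apoptotic genes of the 10, MCL1 had 5 peaks and BCL2A1 had 1. MCL1, a short-lived guardian that binds BAK1 and the BH3-only proteins, carried a number of peaks that 8.80% of coding genes of like window length reached or passed. Its promoter peak at chr1:150551445-150552567 was 1123 bp wide and covered 6 of its 7 annotated TSSs and part of exon 1. In its central 300 bp it held 2 GATA and 2 SP/KLF motifs. Next to it, separated by 172 bp, a peak of 306 bp spanned intron 1 and part of the coding exon 2. A gap of 51 bp led to the third, of 304 bp over exon 2 and intron 2, the single peak of the 28 with no motif of the list in its centre. The MCL1 promoter and the start of its body thus formed a nearly continuous stretch of SMARCA4, which became 1 peak when peaks at most 500 bp apart were merged, leaving 3 peaks at MCL1. Both remaining peaks lay downstream of the canonical transcript. One of 1414 bp at chr1:150533488-150534901 was still inside the annotated span of MCL1, in a transcript with no defined coding sequence, and lay at the TSS of ADAMTSL4-AS1, an antisense transcript. The other, of 183 bp past the span, lay within 1 kb of a TSS of ADAMTSL4 and of MIR4257.

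BCL2A1, a guardian that NF-kB induces in blood cells, had no peak near its start. Its single peak at chr15:80246587-80246815 was 229 bp wide, at the 24.8th percentile of peaks over 1 kb from every TSS, and lay beyond the end of the gene, 16723 bp from the canonical TSS. Of coding genes 58.3% had a peak at least as near. The sequence around its TSS was poor in CpG, with an observed to expected CpG ratio of 0.32 in the 500 bp on either side, whereas that of MCL1 was 0.90. Its window held 1 G4 motif, outside the peak. No NF-kB consensus was found in the central 300 bp of this peak.

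The effectors BAX and BAK1 each had 1 promoter peak over the canonical TSS and 2 distal peaks. BAX, which moves from the cytosol to mitochondria to form pores, had a promoter peak of 700 bp at chr19:49457782-49458481 that covered 4 of its 6 TSSs. The 4 CACGTG E-boxes printed above all lie before the canonical TSS, and 7 of the 28265 peaks (0.0248%) held as many in their central 300 bp. This E-box is bound by MYC and USF proteins among others. Downstream of BAX, a peak of 346 bp in the flank was followed by one of 4960 bp at chr19:49466661-49471620, which covered the TSS of FTL, the gene of the ferritin light chain. It ranked 3 among all peaks by width, and it enters the BAX window only through the flank.

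BAK1, the effector that resides in the mitochondrial membrane, had a narrower promoter peak of 299 bp at chr6:33547959-33548257 over both of its TSSs. It was present although the BAK1 start is poor in CpG, with a ratio of 0.31. Among the 5064 coding genes with a ratio under 0.4, 12.8% had a promoter peak, and BAK1 was the one of the 2 family genes in this class that had one. The BAK1 flanks held a peak of 449 bp at -9803 bp from the nearest TSS and one of 400 bp downstream of the gene, both over 1 kb from every annotated TSS. The upstream peak carried the 3 AP-1 motifs shown above within its central 300 bp, as did 54 peaks of the list (0.191%). Only part of this peak lies in the BAK1 window, and all 3 AP-1 motifs stand past the edge of the window. In its centre the downstream peak had 3 SP/KLF motifs. When the midpoint or at least 50% of a peak had to lie in the window, the upstream peak of BAK1 dropped out.

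The BH3-only activators all had promoter peaks, from 1 at BID to 3 at BCL2L11. BCL2L11 encodes BIM, a strong activator that FOXO factors induce when growth signals fail. Its promoter was covered by a peak of 840 bp at chr2:111877949-111878788, followed after 107 bp by one of 131 bp in intron 1. Another, of 389 bp at chr2:111879971-111880359, covered 2 alternative TSSs, 1480 bp inside the gene from the canonical TSS. The promoter peak holds the FOXO motif printed above, which is present in 4.10% of all peaks and in 1 of the 28. A distal peak of 422 bp at chr2:111926110-111926531 stood just past the 3′ end of the gene, 44787 bp from its nearest TSS, and carried both an AP-1 and a G4 motif. BCL2L11 therefore had SMARCA4 at its start, at an alternative start and past its end, with a gap of 45750 bp between the last 2 of these peaks.

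BID, which caspase-8 cleaves to link death receptors to mitochondria, had a single peak. It was 445 bp wide, at chr22:18256651-18257095, covered 1 of 8 annotated TSSs, and lay in intron 1 of the canonical transcript. It contained 3 G4 motifs on both strands in its whole length, as 4.27% of peaks did with 3 or more, and a CACGTG E-box in its centre. No distal peak was found in the remainder of its 60633 bp window.

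BBC3, which encodes PUMA, and PMAIP1, which encodes NOXA, are the BH3-only genes best known as p53 targets. At BBC3 SMARCA4 covered 4569 bp, or 14.3% of the window, in 4 peaks. The promoter peak at chr19:47733482-47734745 was 1264 bp wide and held 4 G4 motifs, each with its G runs on the strand of the gene. A wider peak of 2423 bp at chr19:47729089-47731511 spanned coding exons 2 and 3, the start of a retained-intron transcript of BBC3 and MIR3191. It ranked 66 of all peaks by width and contained 9 G4 motifs. Of the 28265 peaks, whatever their width, 25 (0.0884%) reached that number. None of the 9 lay in the central 300 bp of the peak. It counts as a promoter peak only through that noncoding transcript. The flanks added a peak of 598 bp at -8188 bp with 4 SP/KLF and, over its whole length, 3 G4 motifs, and one of 396 bp downstream with a GATA motif and a CACGTG E-box. BBC3 thus had the largest number of G4 motifs in peaks of any of the 10 genes, 16 of the 29 in its window.

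PMAIP1 had 2 promoter peaks and no distal one. The first, of 392 bp at chr18:57566970-57567361, covered all 3 of its TSSs and held 4 SP/KLF motifs, 3 of them in a closely spaced run that overlaps its G4 motif. The second, of 149 bp, lay in intron 1 after a gap of 415 bp, and the pair became 1 peak when merged. Neither at BBC3, PMAIP1 and BAX nor at any other family gene did the central 300 bp of a peak hold a p53 consensus, which 36 of all peaks (0.127%) did. This says only that these letters are not in those central 300 bp, and the rest of the peaks and windows was not searched for them.

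The sensitizers BAD and BIK differed from each other. BAD, which binds the guardians and is held inactive by phosphorylation, had 4 peaks, but 3 of them lay within 1 kb of a TSS of GPR137, an overlapping gene on the opposite strand. The pair upstream of BAD consisted of a peak of 563 bp at chr11:64052434-64052996, which covered a GPR137 TSS and ended at -258 bp from the nearest BAD TSS, and a remnant of 5 bp after a gap of 123 bp. No peak covered any of the 7 annotated BAD TSSs. A peak of 416 bp at chr11:64038849-64039264 came within 76 bp of an internal TSS, and a peak of 2089 bp at chr11:64036024-64038112 reached from intron 3 past the end of the gene and covered another GPR137 TSS. With peaks at the TSS of another coding gene left out, an alternative chosen after seeing the data, BAD kept 1 of its 4 peaks.

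BIK, a sensitizer of the endoplasmic reticulum, had no promoter peak although its start is rich in CpG, with a ratio of 0.93. Of the 13272 coding genes with a ratio of 0.6 or more 64.0% had a promoter peak, and of the 7 family genes in this class BIK was the one without. In the middle class (0.4 to 0.6), where 29.6% had one, stood BAD with its ratio of 0.48. The BIK promoter also held 6 G4 motifs within 1 kb of the TSS, none in a peak. Its single peak lay 6145 bp upstream at chr22:43499828-43500611, was 784 bp wide and stood at the 91.9th percentile of peaks over 1 kb from every TSS. This flank peak contained 3 GATA motifs, 1 AP-1 motif, 1 STAT motif and 2 CACGTG E-boxes. At least 3 GATA motifs were found in 8.30% of all peaks and at least 2 CACGTG in 0.531%.

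**Figure D2:**
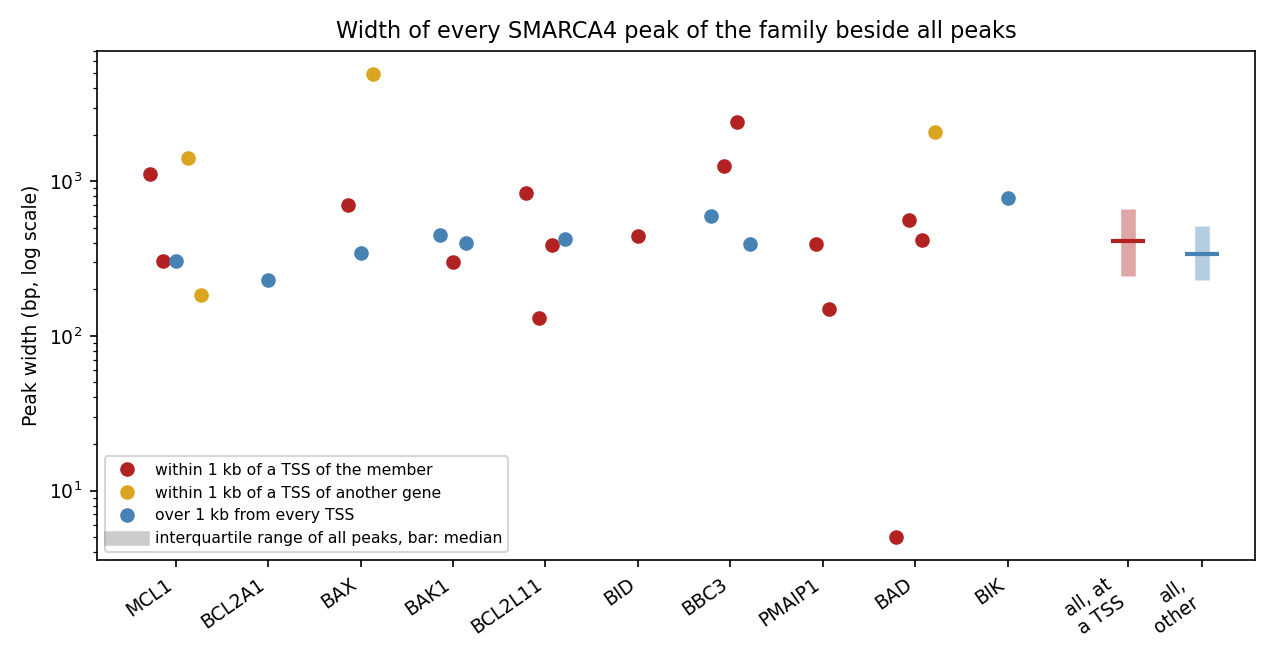
Width in bp (log scale) of each of the 28 peaks, by gene, beside the median and the interquartile range of all peaks within 1 kb of a TSS and of all others. Most points fall in or near the ranges of all peaks. The highest point is the 4960 bp peak at FTL and the lowest the 5 bp peak upstream of BAD.

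Peak widths in the family spread from 5 to 4960 bp around a median of 419 bp (95% binomial interval of the median 346 to 700 bp), and the median of all peaks was 368 bp. Promoter and distal peaks of the family had almost the same median, 416 and 422 bp. Across the list, peaks within 1 kb of a TSS had a median of 410 bp and the others 337 bp. The 9 family peaks over 1 kb from every TSS had a median of 400 bp, and the 4 distal peaks at a TSS of another gene a median of 1752 bp. The 3 widest distal peaks were thus at the starts of neighbouring genes, as the plot of widths shows. The median GC content was 70.7% in the centres of the 15 promoter peaks, where all peaks within 1 kb of a TSS had 64.7%. In the 9 family peaks over 1 kb from every TSS it was 51.0%, where all such peaks had 46.0%.

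SP/KLF was the most frequent motif in the 28 peaks, and GATA motifs depended on the stretch searched. GATA1 is the master regulator of the erythroid programme that K562 cells express, and its motif (AGATAA or AGATAG, or either with T for the first A, on both strands) was in the central 300 bp of 46.7% of all peaks and 4 of the 28. These 4 were the MCL1 promoter, the BAD upstream peak, the BBC3 downstream peak and the BIK flank peak. By position, the motif was in 24.1% of all peaks within 1 kb of a TSS and 2 of 19 in the family, and in 70.2% of the other peaks and 2 of 9. Searched in whole peaks, it was in 9 of the 28, against 51.3% of all peaks, with 6 of 19 against 32.2% near a TSS and 3 of 9 against 71.3% elsewhere. SP/KLF motifs (GGGCGG) were found in 18 of the 28, against 36.5% of all peaks. Among TSS peaks they were in 16 of 19, against 59.4%, and elsewhere in 2 of 9, against 12.7%.

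**Figure D3:**
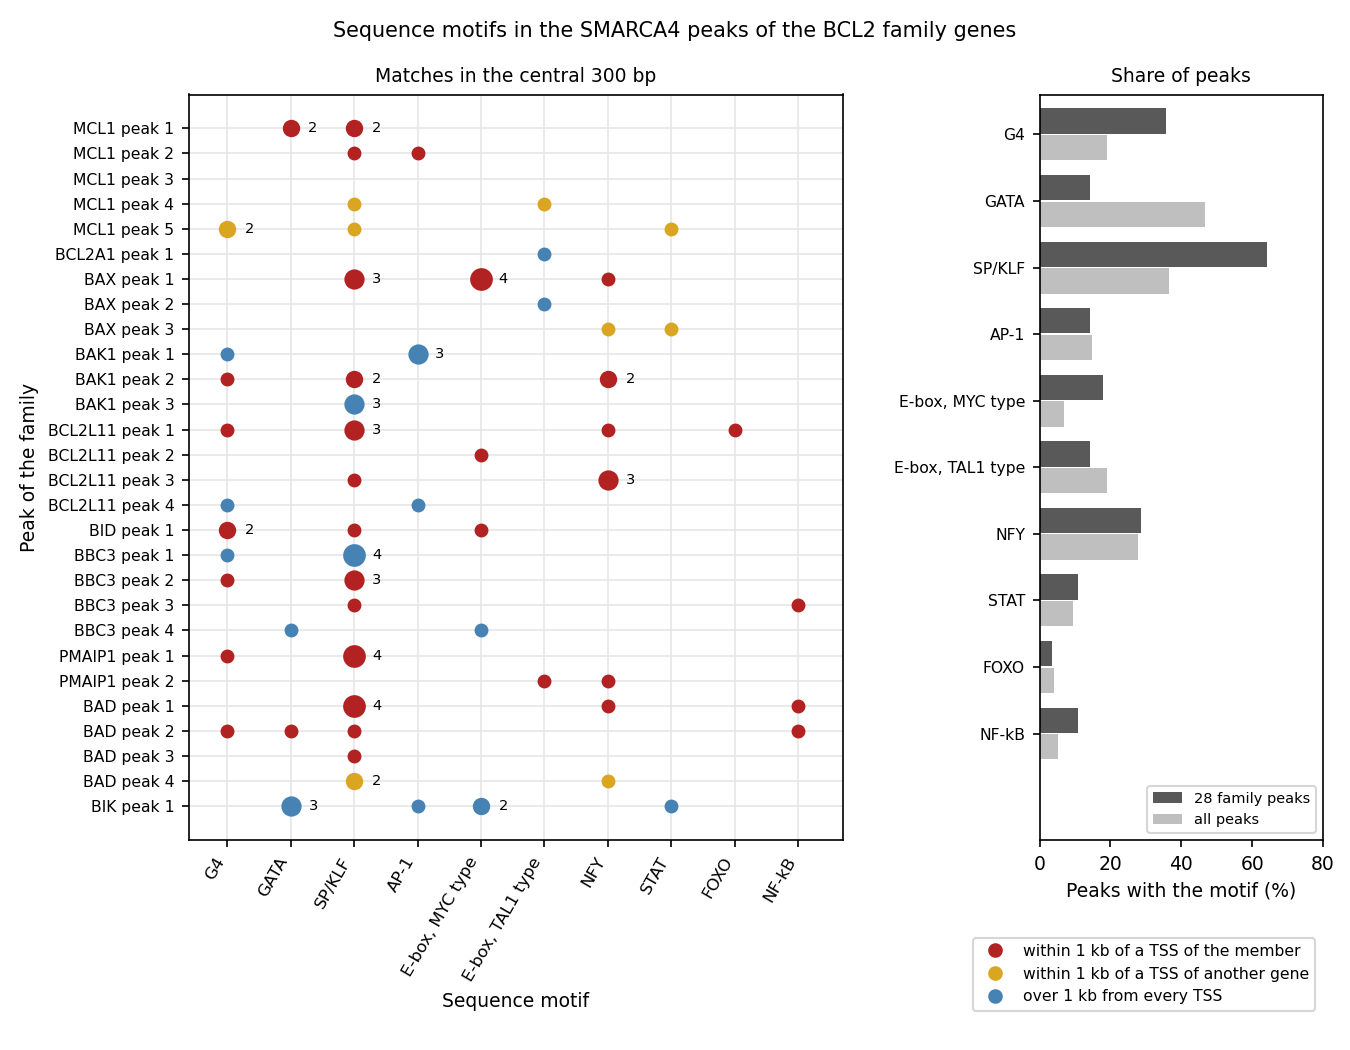
Motif matches in the central 300 bp of each peak (left; dot size and number give the matches) and the share of peaks with each motif among the 28 family peaks and all peaks, in percent (right). SP/KLF dots appear at most promoter peaks, and GATA dots appear at 4 peaks.

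G4 motifs were in the central 300 bp of 10 of the 28 peaks, against 18.9% of all peaks, and anywhere in 16 of them, against 23.4%. By position, 7 of 19 peaks within 1 kb of a TSS held one in the centre, against 30.3% of all such peaks, and 3 of 9 others, against 6.94%. In whole peaks the counts were 13 of 19, against 37.8%, and 3 of 9, against 8.26%. A wider peak offers more sequence, and whole-peak counts were not matched for width. The 19 include peaks of 4960, 2423 and 2089 bp, where all peaks within 1 kb of a TSS had a median of 410 bp. The windows of the 10 genes contained 161 G4 motifs, of which 36 lay wholly inside a peak (22.4%, Wilson interval 16.6 to 29.4%), spread over 8 genes. In the windows of coding genes of like length the share was 6.66% of 102386 motifs. BBC3 weighed on the family value, which was 15.2% of 132 motifs without it (interval 10.0 to 22.2%). Motifs of the same gene often share a peak, so they are not independent. Both intervals treat them as if they were, and are therefore too narrow. Most G4 motifs near these genes thus lay outside SMARCA4 peaks. At BIK and BCL2A1 none of the 17 and 1 in the window was inside one. GGGCGG can lie inside a G4 motif, so the counts of both are not independent. The list does not tell whether any motif is folded in these cells.

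Other motifs were at 8 or fewer of the 28 peaks. NFY (CCAAT) was in 8, against 27.9% of all peaks. By position it was in 8 of 19 TSS peaks, against 26.3% of all such peaks, and in 0 of 9 others, against 29.6%. CACGTG was in 5, against 6.92%, CAGCTG in 4, against 19.1%, and AP-1 in 4, against 14.8%. The STAT motif was in 3 peaks, against 9.49%, and the NF-kB consensus in 3, against 5.09%, namely 1 at BBC3 and 2 upstream of BAD. CRE (TGACGTCA), ETS (CCGGAAGT), RUNX (TGTGGTTT), E2F (TTTCGCGC or TTTGGCGC), NRF1 and CTCF motifs were in none of the 28 and in at most 2.64% of all peaks.

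The promoter peaks of the family were set beside those of genes that act with it. Among all protein-coding genes 48.1% had a promoter peak and 63.0% a window peak. The death receptor pathway, which feeds into the family through BID, had a promoter peak at 9 of 10 genes. The exception was FAS, 1 of its receptors, whose nearest peak was 337517 bp away. Of 4 genes of ubiquitin-dependent MCL1 turnover TRIM17 alone had none. Of 11 further genes of the wider BCL2 family 9 had a window peak and 6 a promoter peak. The 5 without a promoter peak included BCL2L10, BCL2L14, BCL2L15 and BOK. BCL2 and BCL2L1 were neither among these 11 nor among the 10, and were not examined. For K562 identity, 7 of 8 erythroid markers had a promoter peak, with ALAS2 lacking one, and 1 of 5 lymphoid markers, PAX5. A promoter peak can stand at an alternative TSS far from the canonical one. The peak nearest to the canonical TSS was 6407 bp away at PAX5, and 26985 bp away at CASP8 of the death receptor pathway. The lists were not matched to the family for gene length. Median spans ran from 11446 bp (lymphoid markers) to 152888 bp (MCL1 turnover), with 40604 bp in the death receptor pathway and 13410 bp in the family. Expression of these genes was not analysed here.

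**Figure D4:**
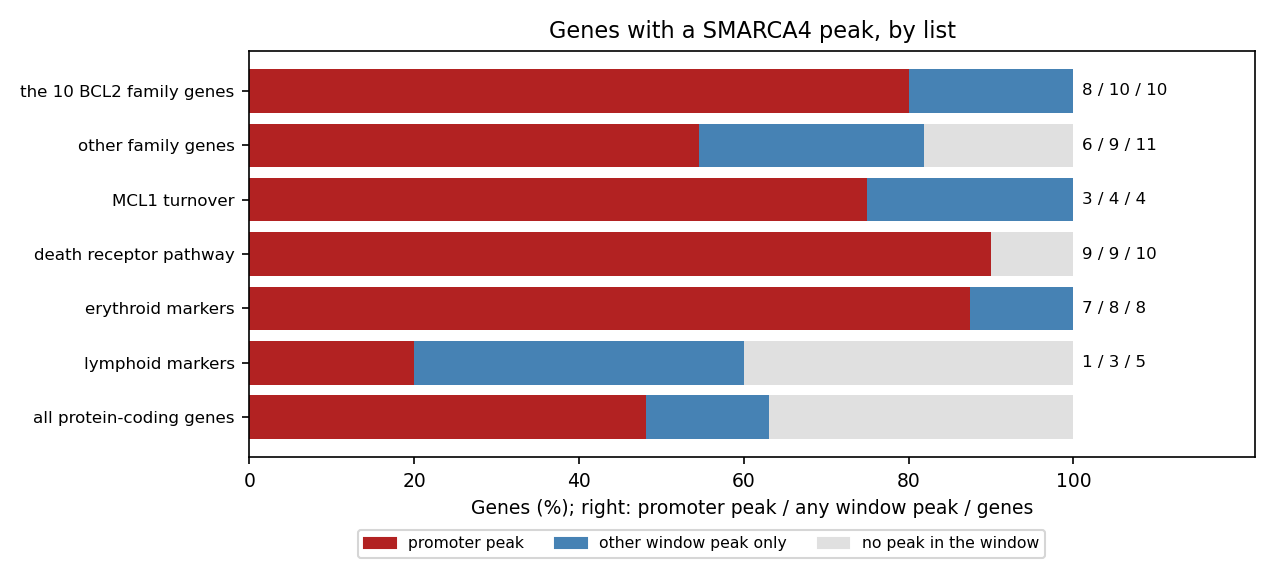
Percentage of genes with a promoter peak, with another window peak only or with none, for the 10 family genes, 5 lists and all protein-coding genes; numbers at the right are genes with a promoter peak, with any window peak and in the list. The family bar reaches 8 of 10 for promoters, and all protein-coding genes 48.1%.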

How the data were processed

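SMARCA4 ChIP-seq of K562 cells comprised 3 ChIP and 3 input libraries, with chromatin sheared to 150 to 400 bp. Per the labels and the methods, the authors used cutadapt 1.16 for trimming, BWA 0.7.15 for alignment (hg19) and Picard 2.14.0 with SAMtools 1.6 for duplicates, called peaks in each replicate against input with MACS2 2.1.1 (q-value threshold 0.05), and used bedtools 2.26.0 to keep what at least 2 of the 3 replicates share. The deposited peak list, the file analysed here, gives start and end positions in bp. Reads and per-replicate peaks were not used here. The list holds no read numbers, so library depth was not used here and no SD between replicates could be given.

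Regions were compared with the GENCODE annotation (release 44, lifted to GRCh37) and the sequence of the same build, using Python 3.11.15, numpy 2.4.6, scipy 1.17.1, pysam 0.24.0 and matplotlib 3.10.9. A peak belonged to a gene when at least 1 bp lay in the gene span plus 10 kb, and was a promoter peak within 1 kb of any annotated TSS of that gene. Motifs were searched on both strands in the 300 bp around the peak centre, which for peaks narrower than 300 bp extends past their edges. No test was made. Counts are given beside those over all protein-coding genes or all peaks, and Wilson 95% intervals cover counting error only. The interval and motif functions were tested on simulated data. Genes named with results are the 10 members with every peak and neighbours whose TSS lies within 1 kb of such a peak. Added to these are up to 4 genes of each list in alphabetical order, those without a promoter peak first. A list of downstream pathway genes is not reported here. Members and lists were chosen with earlier results of these data known. Alternatives were other flanks, overlap and promoter rules, peak sets and motif settings.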

Additional observations from a re-analysis of the deposited data

How the results depend on the processing

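No paired analysis was possible because the peak list analysed here pools the 3 replicates, and for the same reason no replicate could be left out in turn. Under 17 alternative settings, 42 of the 51 recomputed counts and medians of the family stayed within 1.5 times the first count or, for the median width, within its interval. Counts recomputed for single genes stayed within 1.5 times in 106 cases and moved further in 14. With no flank, window peaks fell from 3 to 1 at BAX and BAK1, from 4 to 2 at BBC3 and BAD, and from 1 to 0 at BCL2A1 and BIK. Among peaks of at least 200 bp, PMAIP1 had 1 promoter peak in place of 2. The 8 genes with a promoter peak were 8 under every promoter rule, overlap rule and peak set tried. These included 2 settings chosen after seeing the data (canonical TSS only, and no peaks at the TSS of another coding gene). At BAD different peaks stood behind these 2 counts. With the canonical TSS only, they were the peaks near a GPR137 TSS, and without such peaks, the peak near an internal TSS. The flank moved the number of peaks most. The 28 window peaks became 16 with no flank, 47 with 25 kb and 79 with 50 kb, and the 13 distal peaks became 3, 32 and 64 in these settings and 7 with 5 kb. Searched in the whole peak, G4 motifs were in 16 peaks and GATA motifs in 9, in place of 10 and 4 (over all peaks 23.4% and 51.3%, in place of 18.9% and 46.7%), since a wide peak offers more sequence than its centre. The number of genes with a window peak was 8 with no flank or 5 kb. The list has no heights, so strength of binding could not be compared, and a peak near a gene does not show that SMARCA4 acts on it.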
